A study of Homo sapiens with 10 samples.

Results

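The expression of 37 genes of cholesterol and fatty acid synthesis was followed in HeyA8 cells, an established human ovarian cancer line, after transfection of siRNAs with toxic 6mer seeds. All 37 were found among the 58395 genes counted. They comprised 7 enzymes of the mevalonate pathway, 11 of the sterol pathway, 5 genes of SREBP control, 6 of cholesterol transport and 8 of fatty acid synthesis. Members were chosen by these roles, and the list was selected with earlier values from the same counts in view, among them the fall of TMEM97 with siGGCAGU. Counts of members past the test are therefore given as a description, beside the share of all genes past it. The labels gave 10 libraries in 5 groups of 2, from cells transfected with 10 nM siNT1 (labelled siNT1 S2'OM) or siGGGGGC (siMxy in the titles) for 24 or 48 h, or siGGCAGU (si34a in the titles) for 48 h. siNT1 is the non-targeting control. All groups were the same line, untreated apart from siRNA and transfection lipid, and the 2 libraries of a group were duplicate wells, so the spread measured is that of wells and libraries. Medium was changed at 24 h in the wells kept until 48 h.

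Cholesterol is built from acetyl-CoA through mevalonate, squalene and lanosterol, and fatty acids are built from the same acetyl-CoA by carboxylation, chain extension and desaturation. When sterols run low in the endoplasmic reticulum, SCAP escorts the SREBP transcription factors, products of SREBF1 and SREBF2, to the Golgi for cleavage, and they then switch on genes of both pathways. INSIG proteins hold SCAP back when sterols are plentiful. When sterols are in excess, oxysterols act through the LXR receptors to switch on efflux pumps such as ABCA1 and the ubiquitin ligase MYLIP, which sends lipoprotein receptors to degradation.

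The names siGGGGGC and siGGCAGU give bases 2 to 7 of each guide strand, the stretch that finds messenger RNAs by pairing in the manner of a microRNA seed. miR-34a-5p carries the 6 bases of siGGCAGU in its own seed, and miR-1237-5p carries those of siGGGGGC. Their RefSeq sequences (GRCh38.p14) are shown with bases 2 to 8 in capitals. Of these, only bases 2 to 7 are shared with the siRNAs and gave the words searched for below. Base 8 is G in both microRNAs and A in both siRNA guides.
hsa-miR-34a-5p (chr1:9151735-9151756, minus strand): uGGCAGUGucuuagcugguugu
hsa-miR-1237-5p (chr11:64368651-64368671, plus strand): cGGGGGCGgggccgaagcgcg
The matching 6-base word in a 3' UTR is GCCCCC for siGGGGGC and ACTGCC for siGGCAGU. Some of the words and their surroundings are shown for 5 members that changed strongly, from the 3' UTR of the Ensembl canonical transcript in GENCODE release 44 (hg38), with the word in capitals and its position given.
MVK (chr12:109596879-109596884, plus strand): catctgcttcagGCCCCCgccttggcctgt
MVK (chr12:109596984-109596989, plus strand): ttttcagggaccGCCCCCtgtctctcaggg
SREBF1 (chr17:17812363-17812368, minus strand): ccattttgggggGCCCCCctccttgctctg
HMGCS1 (chr5:43290446-43290451, minus strand): gaacagagaaacACTGCCattgaagaggct
HMGCS1 (chr5:43288974-43288979, minus strand): ggtgaacgtagaACTGCCcactaccagcta
TMEM97 (chr17:28328225-28328230, plus strand): tagctgctgaccACTGCCtggtttgttttg
ABCA1 (chr9:104783178-104783183, minus strand): aggagtatggccACTGCCccactattttta

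Libraries held between 19781445 and 42428986 counts. The filter on low counts kept 16905 genes and 36 of the 37 members. ABCG1, an efflux pump, did not pass it, with 0 to 3 raw counts per library. The mesenchymal markers VIM, CDH2, FN1, SNAI2 and ZEB1 were all detected, and the keratins KRT7, KRT8 and KRT18 were abundant. The epithelial markers EPCAM, at 10.5 to 40.6 normalised counts per library, and KRT19, at 8.93 to 45.3, passed the filter at low levels, while CDH1, CLDN3, CLDN4 and MUC16 stayed below it. Of 17 markers of leukocytes, endothelium, hepatocytes, adipocytes and steroid-producing cells, 4 passed the filter, and the summed level of the 17 ranged from 55.0 to 103 normalised counts. In bulk RNA, fewer cells of a type and less RNA per cell cannot be told apart.

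Per kilobase of annotated exon, the levels of the members in siNT1 cells at 48 h spanned a wide range. ACLY, which makes cytosolic acetyl-CoA, stood at 1547 normalised counts per kilobase, SCD, the stearoyl-CoA desaturase, at 1542, and MSMO1, a methylsterol oxidase, at 1519. SQLE, the squalene epoxidase, followed at 1109 per kilobase. At the low end of the members tested were FADS2 at 19.4, MYLIP at 17.2, ABCA1 at 15.9 and TM7SF2, a sterol reductase, at 12.3 per kilobase. SREBF2 was at 127 and SREBF1 at 21 per kilobase.

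The members rose in the control cells themselves between 24 and 48 h. In siNT1 cells 19 of 36 members (52.8%) were higher at 48 h than at 24 h, against 9.37% of all genes tested, and 0 were lower, against 7.19%. SCD showed the largest difference, with 3960 and 4005 normalised counts at 24 h and 8734 and 7439 at 48 h, a log2 fold change of 1.02 ± 0.10 (SE, n = 2 libraries a group). LSS, the lanosterol synthase, followed at 0.79 ± 0.09, HMGCS1, the HMG-CoA synthase, at 0.73 ± 0.08, SREBF2 at 0.72 ± 0.11 and FADS2, a fatty acid desaturase, at 0.68 ± 0.15. The median over the 36 members was 0.37, against -0.0038 over all genes. The count depended on single libraries: it was 6 without siNT1 24 h replicate 1, 6 without siNT1 24 h replicate 2 and 12 without siNT1 48 h replicate 1. Time after transfection and the change of medium at 24 h cannot be told apart in this comparison.

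**Figure D1:**
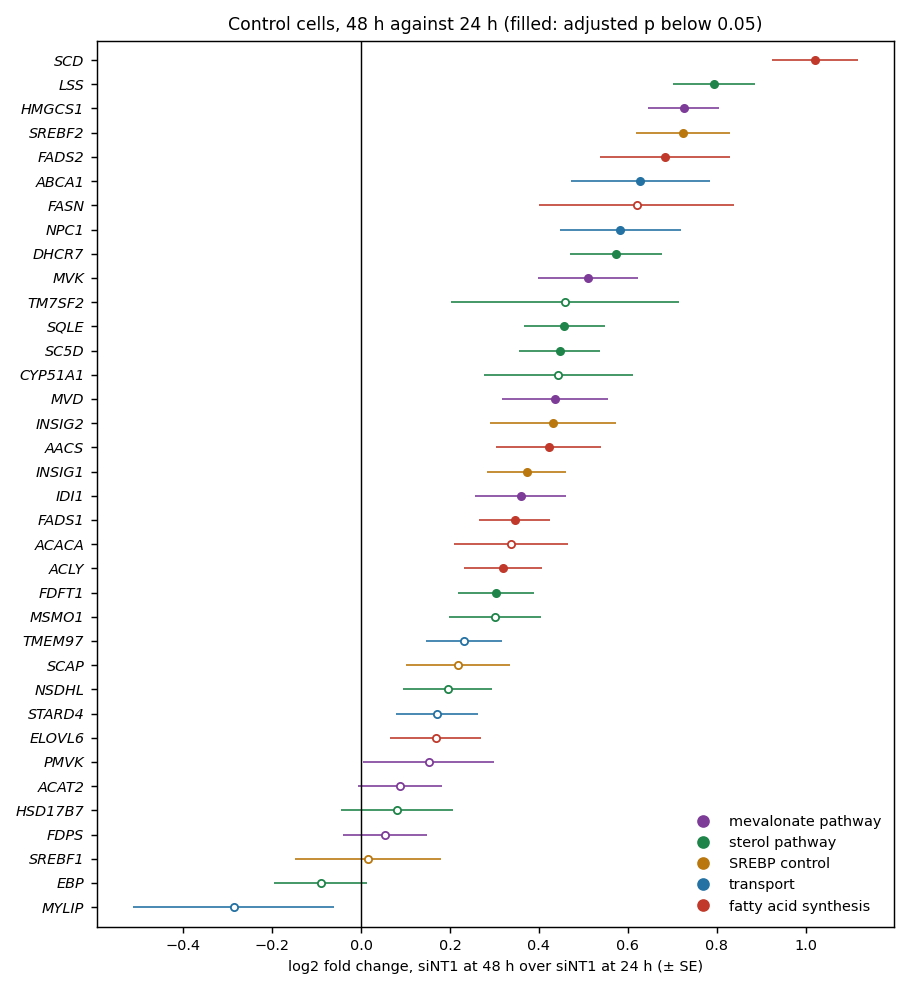
Log2 fold change of the 36 members tested in siNT1 cells at 48 h over 24 h (x axis, points with SE, colours by role, filled where the adjusted p was below 0.05). SCD lies highest at 1.02, and 19 members are filled, all to the right of 0.

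At 24 h with siGGGGGC 30 of 36 members did not pass the test against siNT1. Of the 36, 3 were higher (8.33%), against 10.6% of all genes, and 3 were lower, against 8.31%. MVD, which makes isopentenyl diphosphate, was higher by 0.65 ± 0.12 (log2 fold change ± SE), AACS, the acetoacetyl-CoA synthetase, by 0.44 ± 0.12 and FDFT1, the squalene synthase, by 0.29 ± 0.09. ABCA1 was lower at -0.78 ± 0.20, MVK, the mevalonate kinase, at -0.62 ± 0.13 and TMEM97, a partner of the lysosomal cholesterol exporter NPC1, at -0.53 ± 0.09. No member passed the test beyond a log2 fold change of 1, as 1.56% of all genes did upward and 2.17% downward. The median over the members was 0.069. With the libraries of this comparison fitted alone 9 members were higher and 7 lower, and with upper quartile library sizes 2 were higher and 5 lower. Only 1 was higher without siGGGGGC 24 h replicate 2 or without siNT1 24 h replicate 1, where AACS and FDFT1 lost their calls, as they did without siNT1 24 h replicate 2. MVK lost its call without siGGGGGC 24 h replicate 2, and ABCA1 without siGGGGGC 24 h replicate 1 or siNT1 24 h replicate 2.

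At 48 h with siGGGGGC members passed the test in both directions, as did all genes. Of 36, 12 were higher (33.3%), against 27.8% of all genes, and 16 were lower (44.4%), against 27.5%. Beyond a log2 fold change of 1, 2 were higher, against 10.5% of all genes, and 7 were lower, against 11.0%. By adjusted p alone the share of members was thus of the order of the background upward and above it downward. Beyond a log2 fold change of 1 it was below the background upward and above it downward. The members that rose included 5 sterol enzymes and both INSIG genes, and those that fell included 7 of 8 genes of fatty acid synthesis.

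In the mevalonate pathway 3 of 7 enzymes rose and 3 fell with siGGGGGC at 48 h (42.9% each), against 27.8% and 27.5% of all genes. IDI1, the isopentenyl diphosphate isomerase, was at 2916 and 3287 normalised counts in siNT1 cells and at 6162 and 5774 with siGGGGGC, a log2 fold change of 0.94 ± 0.10. The siGGGGGC libraries were both above the controls, and both siNT1 libraries at 24 h (2391 and 2448) lay close to the siGGGGGC libraries at 24 h (2331 and 2287). MVD rose by 0.70 ± 0.11 and HMGCS1 by 0.24 ± 0.08. The call of HMGCS1 was lost with no filter on low counts, where its log2 fold change was 0.12, and without siGGGGGC 48 h replicate 1, siGGGGGC 48 h replicate 2 or siNT1 48 h replicate 1. MVK was at 384 and 370 with siNT1 and at 170 and 177 with siGGGGGC, a log2 fold change of -1.12 ± 0.12. It was already low at 24 h, at 183 and 162 against 255 and 274 with siNT1. PMVK, the next kinase, fell by 0.61 on the log2 scale and FDPS, the farnesyl diphosphate synthase, by 0.49, while ACAT2, the thiolase of the first step, stood at -0.12 ± 0.09 and did not pass.

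Of the 11 enzymes of the sterol pathway, 5 rose (45.5%) and 2 fell (18.2%), against 27.8% and 27.5% of all genes. MSMO1 was at 4103 and 4558 normalised counts with siNT1 and at 9811 and 9863 with siGGGGGC at 48 h (log2 fold change 1.18 ± 0.10), and at 24 h it had been at 3415 and 3617 with siNT1 and 3199 and 3426 with siGGGGGC. The rise was thus seen at 48 h and not at 24 h. HSD17B7, a ketosteroid reductase that acts on sterol intermediates, was at 345 and 376 with siNT1 and at 895 and 875 with siGGGGGC (1.29 ± 0.12), the largest rise of a member. SQLE rose by 0.75 ± 0.09, SC5D, a sterol desaturase, by 0.59 ± 0.09 and FDFT1 by 0.42 ± 0.09. LSS, the enzyme that acts after SQLE, fell by 0.98 on the log2 scale (SE 0.09), and EBP, a sterol isomerase, by 0.56 (SE 0.11). CYP51A1, TM7SF2, NSDHL and DHCR7 did not pass, with log2 fold changes from -0.09 to 0.05.

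Among the genes of SREBP control, the 2 SREBP genes differed. SREBF1 was at 188 and 158 normalised counts with siNT1 and at 53.6 and 74.6 with siGGGGGC at 48 h, a log2 fold change of -1.42 ± 0.18. SREBF2 was at 1101 and 953 with siNT1 and at 915 and 1041 with siGGGGGC, overlapping groups with a log2 fold change of -0.07 ± 0.10. SCAP fell by 0.71 on the log2 scale (SE 0.12). INSIG1 rose by 0.58 ± 0.09 and INSIG2 by 0.58 ± 0.13.

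Among the transport genes, TMEM97 was at 2192 and 2482 normalised counts with siNT1 and at 699 and 731 with siGGGGGC at 48 h (-1.71 ± 0.09), the largest fall of a member. ABCA1 was at 181 and 179 with siNT1 and at 61.5 and 68.3 with siGGGGGC (-1.47 ± 0.17). MYLIP rose, from 57.3 and 48.1 with siNT1 to 90.5 and 90.1 (0.78 ± 0.21), so the 2 LXR-induced genes tested in this group moved in opposite directions. NPC1 rose by 0.63 ± 0.13. STARD4, a carrier of sterols between membranes, stood at 0.02 ± 0.09.

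In fatty acid synthesis 7 of 8 genes were lower with siGGGGGC than with siNT1 at 48 h (87.5%), against 27.5% of all genes. The median of the group was -0.86. Between 24 and 48 h the means of SCD, FASN and ELOVL6 rose in siNT1 cells. With siGGGGGC they went from 3329 to 3628, 422 to 439 and 587 to 594. The means of ACACA, FADS1, FADS2 and ACLY declined between these times with siGGGGGC. SCD was at 8734 and 7439 normalised counts with siNT1 and at 3665 and 3590 with siGGGGGC (-1.16 ± 0.10). FADS2 was at 205 and 203 with siNT1 and at 96.1 and 79.7 with siGGGGGC (-1.22 ± 0.15). ACACA, the acetyl-CoA carboxylase, was at 1108 and 836 with siNT1 and at 420 and 504 with siGGGGGC (-1.07 ± 0.13). FADS1 fell by 0.87, ACLY by 0.84 and ELOVL6, the elongase of saturated chains, by 0.32 on the log2 scale, and AACS stood at 0.25 ± 0.11 and did not pass. The call of ELOVL6 was lost without siGGGGGC 48 h replicate 2 (-0.26) and without siNT1 48 h replicate 1 (-0.23). FASN, the fatty acid synthase, was at 951 in siNT1 48 h replicate 1 and 493 in replicate 2, against 411 and 466 with siGGGGGC. Its fall of 0.71 on the log2 scale became -0.18 without siNT1 48 h replicate 1 and then did not pass, and the call was also lost without siGGGGGC 48 h replicate 1 and with DESeq2.

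**Figure D2:**
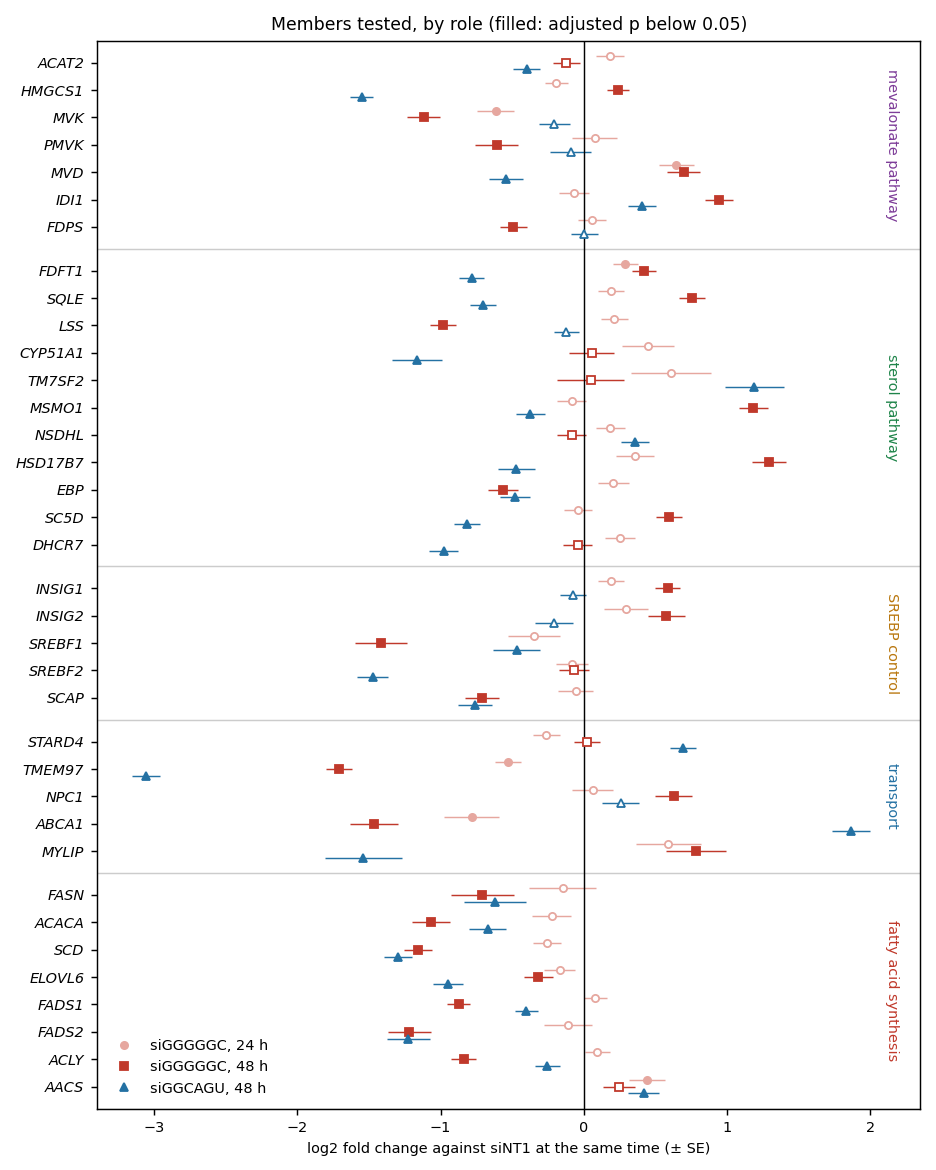
Log2 fold change against siNT1 at the same time (x axis, points with SE, n = 2 libraries a group) for the 36 members tested, ordered by role, for siGGGGGC at 24 h, siGGGGGC at 48 h and siGGCAGU at 48 h. TMEM97 lies at -1.71 with siGGGGGC and -3.06 with siGGCAGU at 48 h, ABCA1 lies on opposite sides of 0, and 7 of 8 genes of fatty acid synthesis are filled to the left of 0 with each siRNA at 48 h.

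Markers of the line also moved at 48 h with siGGGGGC. The summed level of 11 epithelial and ovarian markers was between 17853 and 18059 normalised counts with siNT1, between 6674 and 7006 with siGGGGGC and between 19949 and 23750 with siGGCAGU, and that of the 5 mesenchymal markers fell from between 59271 and 62157 to between 25267 and 25854 with siGGGGGC. Of the 7 epithelial and ovarian markers tested 5 were lower with siGGGGGC, as were 5 of 5 mesenchymal markers, against 27.5% of all genes, and 0 were higher. The sum of the epithelial and ovarian markers was mostly KRT7, KRT8 and KRT18. With siGGCAGU 2 of the 7 were higher and 2 lower (28.6% each), against 27.8% and 24.9% of all genes. WT1 went from a mean of 108 with siNT1 to 42.6 with siGGCAGU, and EPCAM from 28.9 to 12.7. The part of all these markers in the changes of the members was not tested.

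Against siNT1 at 48 h, siGGCAGU lowered most members. Of 36, 23 were lower (63.9%), against 24.9% of all genes, and 6 were higher (16.7%), against 27.8%. Beyond a log2 fold change of 1, 7 were lower, against 9.62% of all genes, and 2 were higher, against 10.7%. The median over the members was -0.47, and over all genes it was 0.024. This comparison and that of siGGGGGC at 48 h share the siNT1 libraries, so the 2 sets of values are not independent.

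The fall reached 8 of 11 sterol enzymes (72.7%) and 3 of 7 mevalonate enzymes (42.9%), against 24.9% of all genes. HMGCS1 was at 2859 and 2961 normalised counts with siNT1 and at 1014 and 973 with siGGCAGU, a log2 fold change of -1.55 ± 0.08. CYP51A1, the lanosterol demethylase, fell by 1.17 (SE 0.17), DHCR7, the reductase of the last step, by 0.98 (SE 0.10) and SC5D by 0.81 (SE 0.09) on the log2 scale. FDFT1 fell by 0.78 and SQLE by 0.71. MSMO1 was at 3704 and 2991 with siGGCAGU and HSD17B7 at 303 and 225, which gave -0.37 ± 0.10 and -0.47 ± 0.13. Both of these calls were lost without siGGCAGU 48 h replicate 2. The enzymes that rose were TM7SF2, from 41.0 and 43.0 to 88.9 and 102 (1.19 ± 0.21), IDI1, to 4525 and 3703 (0.41 ± 0.10), and NSDHL, a sterol dehydrogenase (0.36 ± 0.10). The call of IDI1 was lost with the libraries compared alone, and that of NSDHL there, with no filter on low counts and without siNT1 48 h replicate 1. MVK at 315 and 335 (-0.21 ± 0.11) and LSS (-0.12 ± 0.09), which had fallen with siGGGGGC, did not pass with siGGCAGU.

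SREBF2 was at 396 and 346 normalised counts with siGGCAGU against 1101 and 953 with siNT1, a log2 fold change of -1.47 ± 0.11. SREBF1 was at 140 and 112 (-0.47 ± 0.17), and that call was lost without siNT1 48 h replicate 1, without siGGCAGU 48 h replicate 2 and with DESeq2. SCAP fell by 0.76 (SE 0.12) on the log2 scale. INSIG1 and INSIG2 did not pass, at -0.08 ± 0.09 and -0.21 ± 0.13, although INSIG2 passed at -0.36 without siNT1 48 h replicate 2 and stood at -0.063 without replicate 1.

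TMEM97, whose fall with siGGCAGU was known when the list was drawn up, was at 276 and 283 normalised counts against 2192 and 2482 with siNT1 (log2 fold change -3.06). ABCA1 was at 658 and 657 with siGGCAGU against 181 and 179 with siNT1 (1.87 ± 0.13). MYLIP was at 15.7 and 19.3 against 57.3 and 48.1 (-1.54 ± 0.27). The LXR-induced pair again moved in opposite directions, each the other way than with siGGGGGC. STARD4 rose by 0.69 ± 0.09, and NPC1 stood at 0.26 ± 0.13 and did not pass. NPC1 depended on single libraries, passing at 0.46 without siNT1 48 h replicate 1 and at 0.36 without siGGCAGU 48 h replicate 1, and standing at 0.063 without siNT1 48 h replicate 2 and 0.13 without siGGCAGU 48 h replicate 2.

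In fatty acid synthesis 7 of 8 genes fell with siGGCAGU (87.5%), against 24.9% of all genes, with a median of -0.65. SCD was at 3058 and 3502 normalised counts (-1.30 ± 0.10) and FADS2 at 91.5 and 84.0 (-1.23 ± 0.15), both well under the siNT1 libraries. ELOVL6 fell by 0.95 (SE 0.11) on the log2 scale, and ACACA, at 613 and 606, by 0.67 (SE 0.13). FADS1 fell by 0.40 and ACLY by 0.26. The call of ACLY was lost with the libraries compared alone, without siGGCAGU 48 h replicate 2 and without siNT1 48 h replicate 1. FASN fell by 0.62, which became -0.089 without siNT1 48 h replicate 1, and its call was lost then, without siGGCAGU 48 h replicate 2 and with DESeq2. AACS rose by 0.42 ± 0.11.

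**Figure D3:**
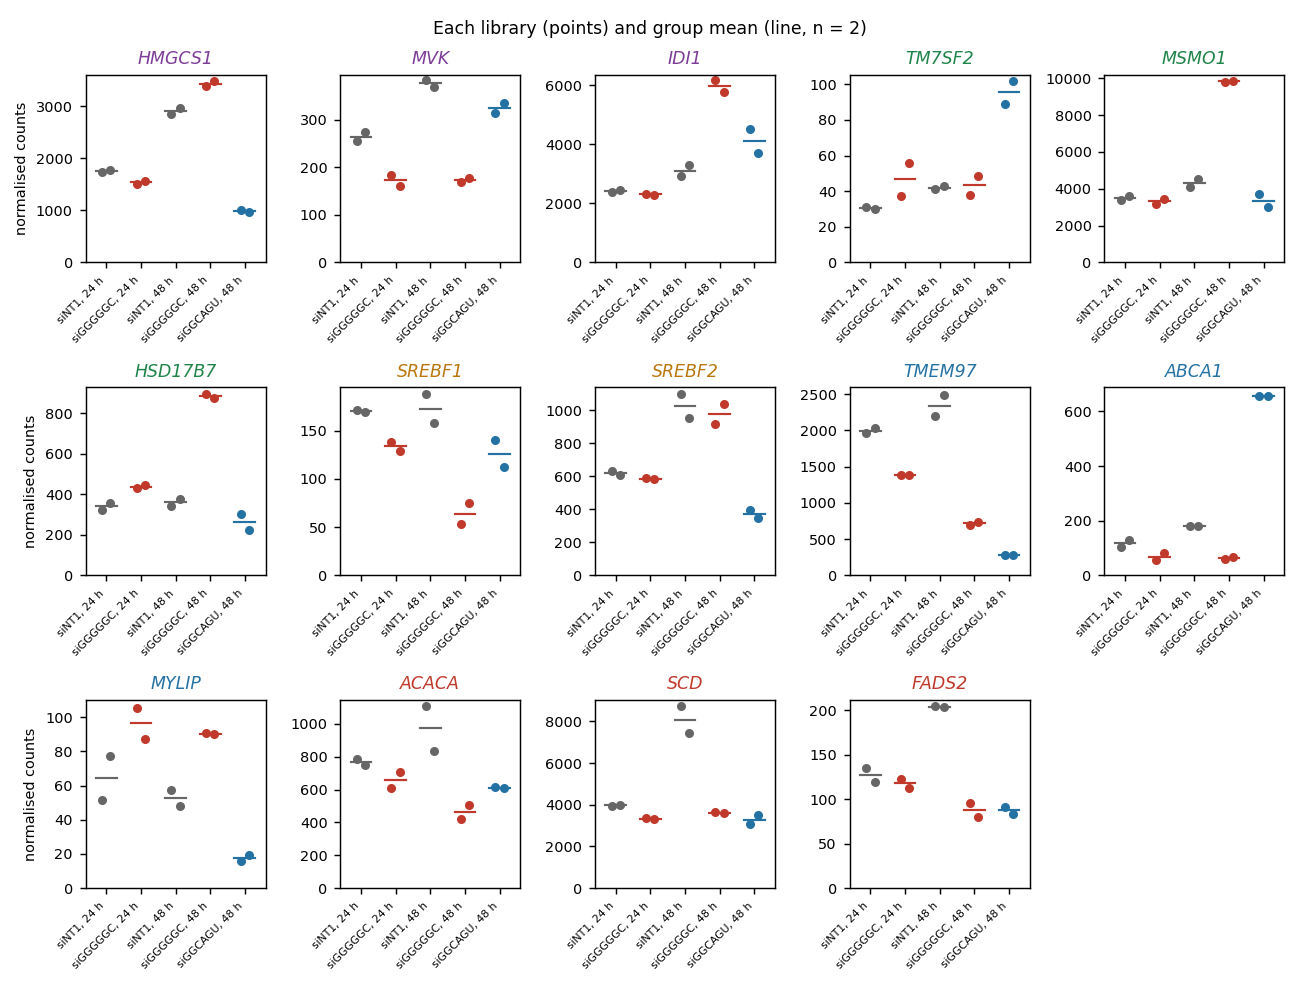
Normalised counts (y axis, from 0, a scale for each gene) of 14 members in each of the 10 libraries (points, with the mean of the 2 libraries as a line), by siRNA and time. MSMO1 stands at 9811 and 9863 with siGGGGGC at 48 h and at 4558 or lower elsewhere, and ABCA1 stands at 658 and 657 with siGGCAGU and at 181 or lower elsewhere.

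The 2 siRNAs were also compared directly at 48 h. Of 36 members, 18 were higher with siGGGGGC than with siGGCAGU (50%), against 26.7% of all genes, and 12 were lower (33.3%), against 27.6%. Beyond a log2 fold change of 1, 11 were higher, against 10.1% of all genes, and 2 were lower, against 12.8%. Of the 11 sterol enzymes 7 were higher and 3 lower with siGGGGGC (median 1.2), of the 7 mevalonate enzymes 4 were higher and 3 lower (median 0.28), and of the 8 genes of fatty acid synthesis 1 was higher, 3 were lower and 4 did not pass (median -0.13). Differences between these groups of genes were not tested.

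The members highest with siGGGGGC over siGGCAGU were MYLIP at 2.32 ± 0.26 (log2 fold change), HMGCS1 at 1.79 ± 0.08 and HSD17B7 at 1.76 ± 0.13. MSMO1 stood at 1.56 ± 0.10, SQLE at 1.46 ± 0.09, SREBF2 at 1.41 ± 0.11 and SC5D at 1.41 ± 0.09. TMEM97 was 1.35 ± 0.10 higher with siGGGGGC, although it fell with each siRNA against siNT1. The lowest were ABCA1 at -3.34 ± 0.16, TM7SF2 at -1.14 ± 0.22, SREBF1 at -0.95 ± 0.19, MVK at -0.91 ± 0.12 and LSS at -0.86 ± 0.09. Differences that did not pass were small for SCD (0.14 ± 0.10), FADS2 (0.01 ± 0.17), SCAP (0.05 ± 0.12) and EBP (-0.08 ± 0.11), and less precise for FASN (-0.09 ± 0.23).

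**Figure D4:**
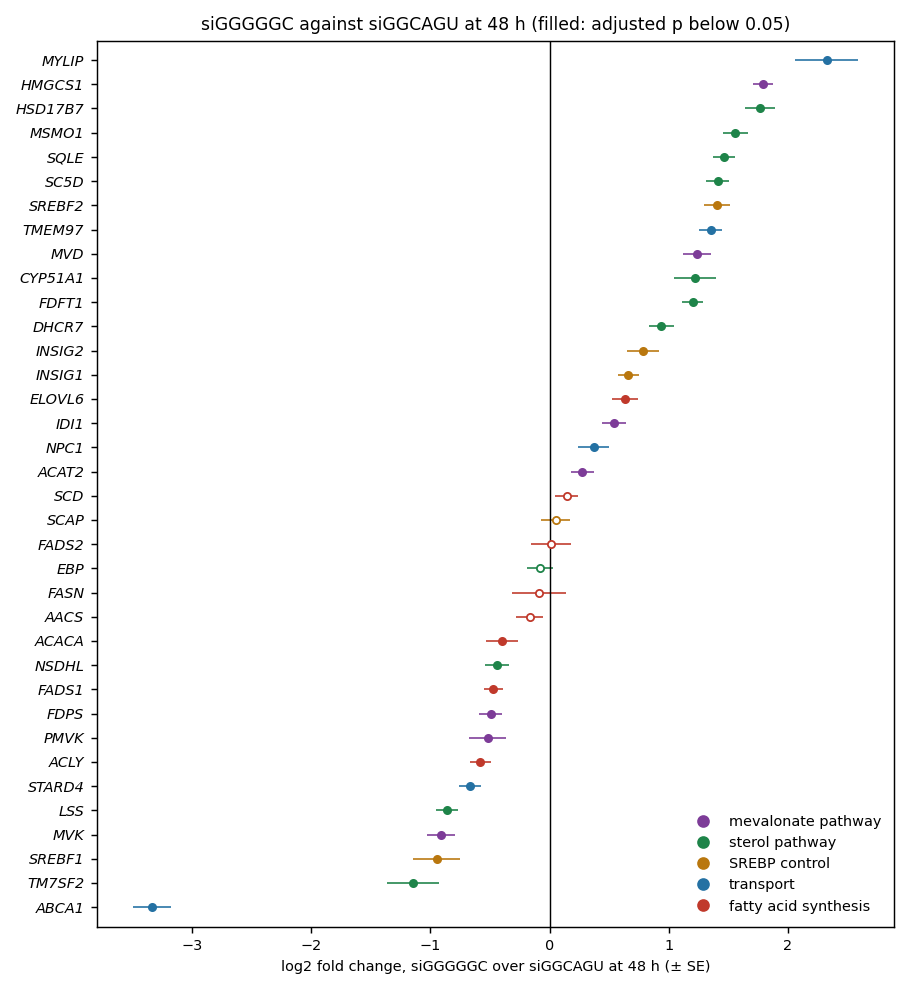
Log2 fold change of siGGGGGC over siGGCAGU at 48 h (x axis, points with SE) for the 36 members tested, sorted, with colours by role and filled where the adjusted p was below 0.05. MYLIP and HMGCS1 lie at the top, at 2.32 and 1.79, and ABCA1 at the bottom, at -3.34.

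The effect of siGGGGGC at 48 h differed from its effect at 24 h in 21 members, as tested by the interaction of siRNA and time. It was higher at 48 h in 8 of 36 members, against 13.4% of all genes, and lower in 13 (36.1%), against 15.2%. MSMO1 (1.27 ± 0.15), IDI1 (1.01 ± 0.14) and HSD17B7 (0.94 ± 0.18) had the largest positive differences of log2 fold change, and LSS (-1.20 ± 0.13), TMEM97 (-1.18 ± 0.12), FADS2 (-1.11 ± 0.23) and SREBF1 (-1.07 ± 0.26) the largest negative ones. The interaction takes in changes of the siNT1 cells between the times as well as those of the siGGGGGC cells. Their shares in it were not tested. SCD rose from a mean of 3983 normalised counts to 8087 in siNT1 cells and from 3329 to 3628 with siGGGGGC. ACLY also rose in siNT1 cells, from 6455 to 8055, and fell from 6884 to 4499 with siGGGGGC. MSMO1 went from 3516 to 4331 in siNT1 cells and from 3312 to 9837 with siGGGGGC. ABCA1, MVD, MYLIP and SREBF2 were among the 15 members whose effects at the 2 times did not differ by this test.

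Matches to the seeds were counted in the canonical 3' UTR of each member. GCCCCC occurred in 10 of 36 members (27.8%), against 29.4% of 12412 protein-coding genes tested. With siGGGGGC at 48 h, 7 of the 10 members with the word were lower and 2 higher, and of the 26 without it 9 were lower and 10 higher. Over all protein-coding genes 37.8% of those with the word and 26.9% of those without it were lower. The median log2 fold change was -0.89 with the word and 0.034 without it, and over all protein-coding genes it was -0.17 and 0.075. At 24 h 1 of the 10 members with the word was lower and 1 higher, and of the 26 without it 2 were lower and 2 higher. Over all protein-coding genes 13.5% of those with the word and 7.42% of those without it were then lower. The medians at 24 h were -0.16 and 0.14 for the members and 0.0074 and 0.041 over all protein-coding genes. FASN held the word 5 times, MVK and FADS2 3 times, SREBF1 and ACACA 2 times, and MVD, NSDHL, SC5D, SCD and ELOVL6 held it 1 time each. With siGGGGGC at 48 h MVD and SC5D rose, and TMEM97 and ABCA1, the 2 members that fell furthest, held no GCCCCC word. With siGGCAGU, whose matching word is ACTGCC, 8 of the 10 members with GCCCCC were also lower and 1 higher. Of the 26 without GCCCCC, 15 were then lower and 5 higher. The medians with siGGCAGU were -0.65 and -0.39, and over all protein-coding genes 29.6% and 27.3% were lower.

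The word ACTGCC occurred in 12 of 36 members (33.3%), against 34.2% of all protein-coding genes. With siGGCAGU 8 of these 12 were lower and 2 higher, and of the 24 without the word 15 were lower and 4 higher. Over all protein-coding genes 33.5% of those with the word and 25.1% of those without it were lower. The median log2 fold change was -0.73 with the word and -0.40 without it, against -0.062 and 0.076 over all protein-coding genes. HMGCS1 and SC5D held the word 2 times and TMEM97 1 time. ABCA1 and STARD4, which rose, also held it, and SREBF2, MYLIP and CYP51A1, which fell by more than 1 on the log2 scale, did not. With siGGGGGC at 48 h, 6 of the 12 members with ACTGCC were lower and 4 higher. Of the 24 without ACTGCC, 10 were then lower and 8 higher, and over all protein-coding genes 32.8% and 28.7% were lower. These counts are descriptions of the letters of 1 transcript a gene.

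**Figure D5:**
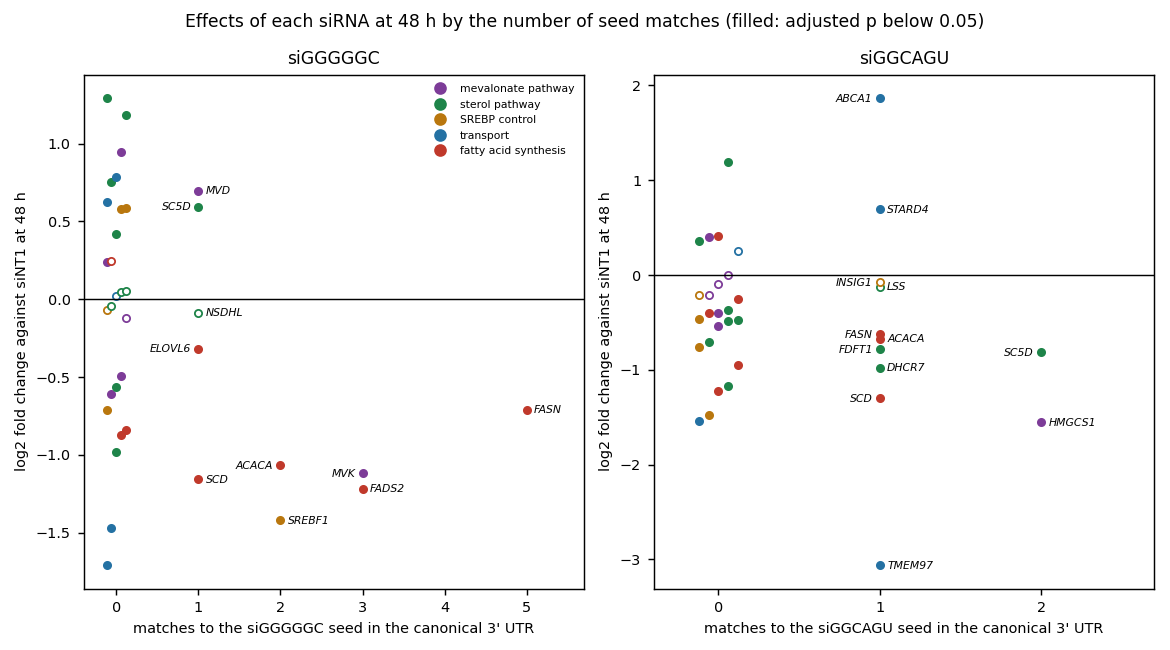
Log2 fold change against siNT1 at 48 h (y axis) by the number of seed matches in the canonical 3' UTR (x axis), for siGGGGGC and GCCCCC on the left and siGGCAGU and ACTGCC on the right. Of the 5 members with 2 or more GCCCCC, all lie below 0 with siGGGGGC. With siGGCAGU the same 5 were also below 0, from -1.23 to -0.21. Of those with 1 GCCCCC, MVD and SC5D lie above 0 with siGGGGGC and NSDHL, SCD and ELOVL6 below it. Members without the word spread from -1.71 to 1.29, and ABCA1 lies at 1.87 with 1 ACTGCC.

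A RefSeq promoter (GRCh38.p14, 250 bases before to 50 after the start) was listed for 32 of the members. The pentamer CCAAT, the core of the site of NF-Y, a frequent partner of SREBP, was present on either strand in 22 of 32 (68.8%), against 43.8% of 10157 protein-coding genes tested. The sterol element was searched on both strands only as the exact word TCACNCCAC, so variants of it were not counted. This word was present in 1 of 32, SREBF2, against 1.55% of protein-coding genes tested. That stretch is shown because SREBF2 differed most between the siRNAs among the genes of SREBP control, with the element in capitals.
SREBF2 (chr22:41832962-41832990, plus strand): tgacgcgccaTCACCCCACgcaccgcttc

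Other genes around the pathway were taken from lists drawn up by role. Of 12 genes of SREBP processing and turnover, 4 were higher (33.3%) and 3 lower (25%) with siGGGGGC at 48 h, none beyond a log2 fold change of 1, against 27.8% and 27.5% of all genes. With siGGCAGU 1 was higher (8.33%) and 7 were lower (58.3%), against 27.8% and 24.9% of all genes. ERLIN1, which restrains SREBP in the endoplasmic reticulum, stood at -1.84 ± 0.09 and its homologue ERLIN2 at 1.21 ± 0.09. Of 15 genes of cholesterol uptake, storage and trafficking, 7 were higher (46.7%) and 6 lower (40%) with siGGGGGC at 48 h, against the same 27.8% and 27.5%. SCARB1, the receptor for high density lipoprotein, fell with both siRNAs, by 1.43 with siGGGGGC and 1.79 with siGGCAGU on the log2 scale. SOAT1, which esterifies cholesterol, stood at -1.24 ± 0.08 with siGGGGGC, and NCEH1, which hydrolyses its esters, at 1.10 ± 0.08 at 48 h and 1.39 ± 0.08 at 24 h. OSBPL2, GRAMD1B and GRAMD1C, sterol transfer proteins, stood at 1.15, 1.16 and 1.41, while GRAMD1A, OSBP and OSBPL9 of the same families stood at -0.49, -0.51 and -0.27. With siGGCAGU 6 of the 15 were higher and 6 lower (40% each), against 27.8% and 24.9%. CAV1, the caveolar coat protein, stood at -2.32 ± 0.09 and the receptor LRP1 at 1.71 ± 0.19. Of 6 LXR receptors and targets, 2 were higher (33.3%) and 1 lower (16.7%) with siGGGGGC at 48 h and likewise with siGGCAGU. NR1H3, an LXR receptor, stood at 1.25 ± 0.18 with siGGCAGU.

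Some members share exon positions with other genes, and the strand setting of the counting was not given in the sources used here. HMGCS1 shared 37.7% of its exon bases with a gene on the opposite strand, ACAT2 20.9%, FDPS 18.6%, IDI1 15.0%, TMEM97 12.3% and SREBF2 9.08%. Pseudogenes are annotated for FDPS (8), IDI1 (3), CYP51A1 (3), HSD17B7 (2), TMEM97 (2), SCD (1) and AACS (1), so the levels of the members named here are less certain.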

How the data were processed

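RNA of HeyA8 cells was sequenced in 10 libraries, 5 groups of 2. The authors' deposited files held unnormalised whole-number counts, 1 per gene and library. Per the labels and methods, total RNA was depleted of ribosomal RNA, and reads were trimmed, aligned to hg38 and assigned to exons with HTSeq. The methods name TopHat or STAR and the submitters' processing notes TopHat with Bowtie2. The 4 deposited tables of comparisons hold the authors' mean counts, fold changes and p-values and were not used.

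Groups were compared by edgeR 4.0.16 (R 4.3.3) through its quasi-likelihood F test, in 1 fit of the 10 libraries with 5 groups, TMM library sizes and filterByExpr (16905 of 58395 genes), with Benjamini-Hochberg adjustment over all genes kept. Calls were made at an adjusted p below 0.05. Normalised counts are counts scaled to the mean TMM library size. The SE is the absolute log2 fold change over the square root of F. The fit had 5 residual degrees of freedom and a common biological coefficient of variation of 0.0837, and the 20 largest genes took between 26.5% and 39.1% of a library. Replicates differed by more than counting noise (chi-square per degree of freedom 2.29 to 43.2). The method was tested on simulated data with few genes changed and the same spread for every gene. That test does not cover changes and spread as wide as those of these libraries.

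The members and lists were chosen with earlier results of these data known. Per library values are given for the members with the largest effects in each role, and in each comparison up to 10 members each way were named by effect. FASN, SCAP, STARD4 and other members named beyond these, and the markers, were chosen after their values were seen. GENCODE release 44 gave symbols, hg38 positions and canonical 3' UTRs. Alternatives were DESeq2 1.42.0, other scalings and filters, and each library left out. Some genes and seed matches are not reported here.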

Additional observations from a re-analysis of the deposited data

Results flagged for a closer look

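The effect of siGGGGGC against siNT1 differed between 24 and 48 h in 21 members, by the interaction of siRNA and time in edgeR's quasi-likelihood test (adjusted p below 0.05, n = 2 libraries a group). Of 36 members 8 had a higher effect at 48 h (22.2%), against 13.4% of all genes, and 13 a lower one (36.1%), against 15.2%. The values are log2 fold changes at 48 h minus those at 24 h, and the 24 h and 48 h samples also differ in the change of medium. Positive differences were found for MSMO1 (1.27), IDI1 (1.01), HSD17B7 (0.94), SC5D (0.64), NPC1 (0.57), SQLE (0.56), HMGCS1 (0.43) and INSIG1 (0.39). HMGCS1 stood at -0.19 ± 0.08 at 24 h and 0.24 ± 0.08 at 48 h. Negative differences were found for LSS (-1.20), TMEM97 (-1.18), FADS2 (-1.11), SREBF1 (-1.07), FADS1 (-0.95), ACLY (-0.93), SCD (-0.90), ACACA (-0.84), EBP (-0.77), PMVK (-0.69), SCAP (-0.65), FDPS (-0.55) and MVK (-0.50). LSS stood at 0.21 ± 0.10 at 24 h and -0.98 ± 0.09 at 48 h. With no filter on low counts 5 members had a higher effect at 48 h and 16 a lower one.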

How the results depend on the processing

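The counts of members called at 48 h changed little with library sizes by RLE or upper quartile, DESeq2, either filter, the 20 largest genes left out or the libraries compared alone. No scaling moved the median of all genes by over 0.1 on the log2 scale. At 24 h, where 3 members were higher and 3 lower with siGGGGGC, 9 and 7 passed with the libraries compared alone, and 5 were lower with upper quartile library sizes or a mean count of at least 50. The interaction had 5 higher members with no filter on low counts, against 8. The labels' replicate numbers are shared by the groups, but the deviations of same-numbered samples correlated between -0.089 and 0.027. No pairing by number was thus detected. A correlation over all genes tested, many with low counts, cannot show that same-numbered wells were handled apart. With the replicate number as a block, 12 members were higher and 16 lower with siGGGGGC at 48 h, 23 were lower and 6 higher with siGGCAGU, and the interaction had 7 higher and 12 lower members.

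With each library left out in turn, members called with siGGGGGC at 24 h ranged from 1 to 3 higher and from 2 to 3 lower (beyond a log2 fold change of 1, 0 to 1 lower), members lower in the direct comparison beyond 1 ranged from 1 to 3, members with a higher effect at 48 h than at 24 h from 5 to 7, and members higher in siNT1 cells at 48 h from 6 to 20. For siGGGGGC at 48 h the ranges were 11 to 12 higher and 14 to 16 lower, and for siGGCAGU 6 to 7 higher and 19 to 24 lower.

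Of the members below, which changed sign under some setting, none passed the test in the value reported. With each library left out in turn, the log2 fold change with siGGGGGC at 24 h ranged from -0.38 to 0.067 for FASN, -0.077 to 0.20 for NPC1, -0.11 to 0.044 for SC5D and -0.20 to 0.088 for SCAP. With siGGGGGC at 48 h it ranged from -0.16 to 0.26 for CYP51A1, -0.16 to 0.057 for DHCR7, -0.19 to 0.0058 for NSDHL, -0.18 to 0.028 for SREBF2, -0.031 to 0.063 for STARD4 and -0.15 to 0.20 for TM7SF2. With siGGCAGU it ranged from -0.093 to 0.091 for FDPS, -0.16 to 0.0054 for INSIG1 and -0.45 to 0.16 for PMVK, which passed the test of edgeR (adjusted p = 0.0086) only without siGGCAGU 48 h replicate 2. With no filter on low counts CYP51A1 (-0.067), STARD4 (-0.0997) and TM7SF2 (-0.075) changed sign with siGGGGGC at 48 h, and FDPS did so with siGGCAGU there (-0.080), with DESeq2 (-0.014), with RLE (-0.014) and with the libraries alone (-0.045). HMGCS1's rise with siGGGGGC at 48 h did not pass with no filter or without 3 of the 4 libraries compared. The cause of these changes was not tested. Low counts limited ABCG1, MYLIP and TM7SF2.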

Other observations

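Genes of neighbouring branches of lipid metabolism, taken from lists drawn up by role, were counted in the same way at 48 h. Of 11 genes of fatty acid oxidation tested, 6 were higher and 1 lower with siGGGGGC, and 6 higher and 2 lower with siGGCAGU. Over all genes 27.8% were higher in each comparison, and 27.5% and 24.9% were lower. CPT2, the carnitine transferase of the inner mitochondrial membrane, stood at a log2 fold change of 1.62 ± 0.19 with siGGGGGC and 1.5 ± 0.19 with siGGCAGU, and PPARA, a receptor that switches on fatty acid oxidation, at 1.32 ± 0.17 and 1.80 ± 0.16. Both comparisons share the siNT1 libraries. At 24 h 6 of the 11 were higher with siGGGGGC, against 10.6% of all genes, and 0 lower. Of the genes higher at 24 h, ACADVL was lower at 48 h (-0.31 ± 0.09) and ECI1 did not pass then (0.18 ± 0.13).

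Of 30 genes of fatty acid supply, elongation and esterification tested, 8 were higher (26.7%) and 10 lower (33.3%) with siGGGGGC at 48 h, near the shares of all genes, and 12 higher (40%) and 11 lower (36.7%) with siGGCAGU. ELOVL4, an elongase of very long chains, stood at 2.02 ± 0.16 with siGGGGGC and -1.45 ± 0.22 with siGGCAGU. LPIN2, a phosphatidate phosphatase, stood at 1.46 ± 0.11 and its homologue LPIN3 at -1.70 ± 0.18 with siGGGGGC, and FABP5, a fatty acid carrier, at -1.90 ± 0.24 with siGGCAGU. Of 12 genes of the isoprenoid branch, which draws on the mevalonate pathway, 3 were higher and 3 lower with siGGGGGC at 48 h (25% each), also near the shares of all genes. With siGGCAGU 3 were higher (25%) and 4 lower (33.3%), among them GGPS1, the geranylgeranyl diphosphate synthase, at 1.18 ± 0.16 and PDSS1, which makes the side chain of coenzyme Q, at -1.03 ± 0.12.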
